A study of Homo sapiens with 4 samples.

Results

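The RAB27 exocytosis effectors form a set of 10 genes out of 61541 in the table. They are the 5 synaptotagmin-like genes (SYTL1, SYTL2, SYTL3, SYTL4 and SYTL5), the small GTPase genes RAB27A, RAB27B and RAB3D, and the effector genes MYRIP and UNC13D. SYTL5 was picked by its large fall after UBXN1 knockdown, so its values are given as a description with no test. The other 9 genes were added for their known link to RAB27, with earlier results of these data in view. The cells were MHCC97H, an established human line of hepatocellular carcinoma (HCC). They carried either a control shRNA (shCon, 2 libraries) or an shRNA against UBXN1 (shUBXN1, 2 libraries). By the study's methods shRNAs were carried in pLKO.1 lentivirus, and the sources used here do not say which UBXN1 shRNA the sequenced cells carried. Nothing in the labels says that the libraries of a group came from separate cultures, so p-values measure the spread between these libraries, which may be technical.

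Regulated exocytosis brings vesicles to the plasma membrane and fuses them there on demand. RAB27 proteins, when bound to GTP, sit on the vesicle and recruit effectors, of which the synaptotagmin-like proteins link the vesicle to the membrane through their C2 domains. MYRIP connects the vesicle to myosins on actin, and UNC13D (Munc13-4) primes the vesicle for SNARE-driven fusion. In blood cells and melanocytes this machinery releases lytic granules and moves melanosomes, and in many tumor lines RAB27A and RAB27B act in exosome release.

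Libraries held 23373700 to 27380508 counts. UBXN1 had 1788 and 1817 counts in shCon and 416 and 433 in shUBXN1, so the target was lower in both knockdown libraries. Levels below are CPM, which are counts relative to the TMM-scaled size of the library. Where members are compared with each other, levels are TPM, which also divide by gene length. Sums of markers are in CPM and are not adjusted for gene length. The test was the quasi-likelihood test of edgeR, and adjusted p-values are Benjamini-Hochberg values over the 16863 genes that passed the filter on low counts. That filter kept 9 of the 10 members, and MYRIP failed it. Hepatocyte markers were counted in all libraries, although TTR had only 5 and 3 counts in shUBXN1. Of the genes of secreted plasma proteins, 5 were clearly lower in shUBXN1, while SERPINA1 was higher (log2 fold change 0.40). AFP (-0.29, edgeR adjusted p = 0.266) and APOA1 (-0.56, edgeR adjusted p = 0.397) did not pass the test. ALB, the albumin gene, was at 18.0 and 17.2 CPM in shCon and 4.202 and 4.78 CPM in shUBXN1. The level left was 25.6% for ALB, 27.8% for APOB, 25.6% for TF, 11.5% for TTR and 6.06% for FGB, and these 5 were lower at a fold change of 2. KRT8, a keratin gene, was at 3354 and 3467 CPM in shCon and 2329.5 and 2715 CPM in shUBXN1. The keratin gene KRT18 went the other way, from 895 and 949 CPM to 1045 and 1247 CPM (log2 fold change 0.31, edgeR adjusted p = 0.0116). The summed level of the 10 hepatocyte and HCC markers was 4412 and 4565 CPM in shCon and 3426 and 4012 CPM in shUBXN1, most of it from KRT8 and KRT18. At an adjusted p under 0.05, 6 of the 10 were lower and 2 higher, where 28.2% and 28% of all genes tested were. Of the leukocyte markers CD3E was at 0 in every library, as was the melanocyte marker TYR. The summed melanocyte markers were 1.45 and 0.809 CPM in shCon and 3.89 and 1.97 CPM in shUBXN1. MITF gave most of that rise, from 0.488 and 0.341 CPM to 2.91 and 1.41 CPM. Leukocyte markers summed to 83.9 and 89.5 CPM in shCon and 73.9 and 71.5 CPM in shUBXN1, nearly all from CD68. Neuroendocrine markers summed to 2.37 and 2.21 CPM in shCon and 1.37 and 1.36 CPM in shUBXN1. The summed fibroblast markers were 33.1 and 33.2 CPM in shCon and 17.1 and 19.7 CPM in shUBXN1. LUM made up most of that sum and fell from 31.7 and 32.3 CPM to 13.9 and 16.7 CPM. COL1A1 went the other way, from 0.375 and 0.170 CPM to 2.34 and 2.52 CPM. Endothelial markers summed to 48.4 and 49.9 CPM in shCon and 92.6 and 99.5 CPM in shUBXN1. KDR gave most of that rise, from 14.6 and 15.8 CPM to 48.2 and 56.6 CPM, whereas CDH5 went from 3 and 6 counts to 0 and 0. The part of these shifts in the results below was not tested.

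The members did not move as one set. SYTL5, SYTL2 and RAB27B were lower in shUBXN1, whereas UNC13D, RAB3D and RAB27A were higher, and SYTL1, SYTL3 and SYTL4 did not pass the test. Among the 8 members tested other than SYTL5, 3 were called higher at an adjusted p under 0.05, against 28% of all genes tested, and 2 were called lower, against 28.2%. At a fold change of 2 with an unadjusted p under 0.05, 1 was higher (11.8% of all genes) and 2 were lower (6.09%). The groups did not overlap for any of these 8 genes, as for 78% of all genes tested. In bulk RNA a change in every cell and a change in the share of cells that express a gene cannot be told apart.

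**Figure D1:**
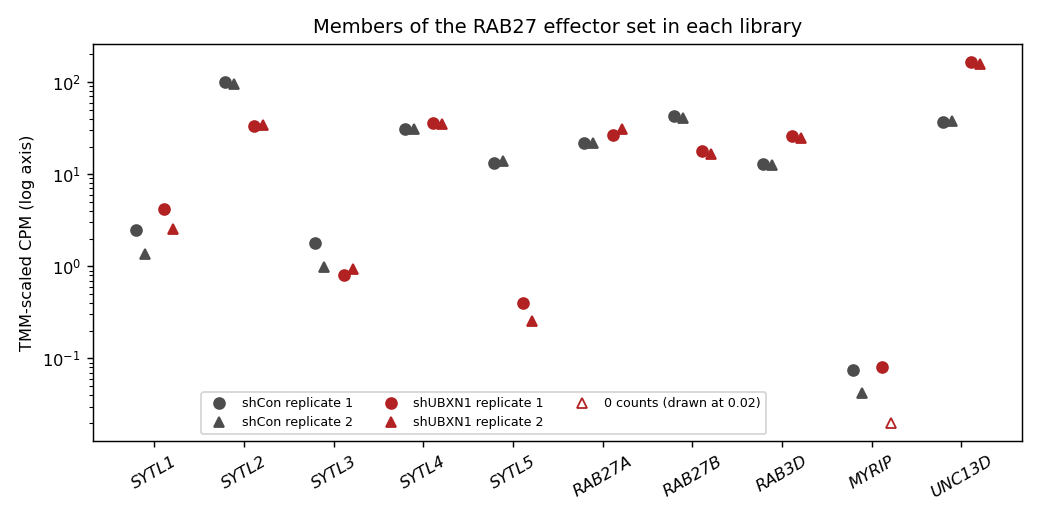
TMM-scaled CPM of the 10 members on a log axis. Each point is 1 library, with shCon in gray and shUBXN1 in red, circles for replicate 1 and triangles for replicate 2, and an open triangle for a library with 0 counts. SYTL5 fell from between 13.2 and 13.8 CPM to between 0.256 and 0.404 CPM, and UNC13D rose from about 37.3 to 161 CPM.

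SYTL5 (ENSG00000147041) encodes the synaptotagmin-like protein Slp5, which binds RAB27A and carries C2 domains. SYTL5 was counted 352 and 324 times in the shCon libraries, against 10 and 6 times in the shUBXN1 libraries. On the CPM scale this was 13.2 and 13.8 in shCon and 0.404 and 0.256 in shUBXN1. Both knockdown libraries were far below both control libraries, and each still held more than the 3 counts taken here as the floor. The mean CPM in shUBXN1 was 2.45% of that in shCon, a level 40.9-fold lower. The fitted log2 fold change was -5.32 (standard error 0.25), which was the 14th largest fall among the genes tested. The fitted value was between -5.70 and -5.04 when each library was left out in turn. With limma it was -2.56 on log2(TPM + 1) and -3.40 on log2(CPM + 1). All of these describe the fall by which SYTL5 was picked and give it no support.

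SYTL5 lies on the plus strand of chromosome X of GRCh38 from 38006553 to 38128819, and its canonical transcript has 17 exons. No exon of another annotated gene overlapped its exons, although the gene ENSG00000250349 spans the whole locus on the same strand. That spanning gene had 3.67 and 18.6 counts in shCon and 1.85 and 4.68 in shUBXN1, and it did not pass the filter on low counts.

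The sequences around annotated transcription starts are shown for SYTL5 and RAB27B, which were lower in shUBXN1, and for RAB3D, which was higher. Each runs from 250 bases before to 50 bases after a start, as given by RefSeq for GRCh38.p14, where 8 of the 10 members matched (not SYTL2 and UNC13D). Capitals mark CG dinucleotides, which are unevenly spread over human promoters.
SYTL5 upstream start, chrX:38006303-38006602, plus strand: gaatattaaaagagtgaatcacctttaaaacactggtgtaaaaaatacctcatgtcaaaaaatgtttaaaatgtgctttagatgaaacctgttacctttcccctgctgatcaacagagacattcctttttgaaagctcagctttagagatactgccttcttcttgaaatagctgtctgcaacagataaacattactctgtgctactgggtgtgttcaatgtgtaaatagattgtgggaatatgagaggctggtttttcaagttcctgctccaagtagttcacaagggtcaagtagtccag
SYTL5 downstream start, chrX:38033284-38033583, plus strand: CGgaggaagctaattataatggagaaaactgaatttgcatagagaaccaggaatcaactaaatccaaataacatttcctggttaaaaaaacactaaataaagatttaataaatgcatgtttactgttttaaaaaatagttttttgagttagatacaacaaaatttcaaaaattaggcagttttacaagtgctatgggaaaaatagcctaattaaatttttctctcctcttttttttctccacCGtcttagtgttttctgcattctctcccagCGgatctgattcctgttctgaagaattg
RAB27B upstream start, chr18:54717607-54717906, plus strand: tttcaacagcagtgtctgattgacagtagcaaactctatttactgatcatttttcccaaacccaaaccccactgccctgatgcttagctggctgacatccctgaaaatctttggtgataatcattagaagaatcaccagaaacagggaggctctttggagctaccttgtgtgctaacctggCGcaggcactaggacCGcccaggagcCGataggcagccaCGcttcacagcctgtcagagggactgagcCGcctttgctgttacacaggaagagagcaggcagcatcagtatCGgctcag
RAB27B downstream start, chr18:54828227-54828526, plus strand: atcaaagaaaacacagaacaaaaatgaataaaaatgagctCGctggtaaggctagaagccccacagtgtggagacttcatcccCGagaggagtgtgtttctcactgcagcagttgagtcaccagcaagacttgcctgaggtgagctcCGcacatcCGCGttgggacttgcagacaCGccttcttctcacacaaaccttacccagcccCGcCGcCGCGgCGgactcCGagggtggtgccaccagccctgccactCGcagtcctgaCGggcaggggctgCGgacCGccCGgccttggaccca
RAB3D start, chr19:11339608-11339907, minus strand: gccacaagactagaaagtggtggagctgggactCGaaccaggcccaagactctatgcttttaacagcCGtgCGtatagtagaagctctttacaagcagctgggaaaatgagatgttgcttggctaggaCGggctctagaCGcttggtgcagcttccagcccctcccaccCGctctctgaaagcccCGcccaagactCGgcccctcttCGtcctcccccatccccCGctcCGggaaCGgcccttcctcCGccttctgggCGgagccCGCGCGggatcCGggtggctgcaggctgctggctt

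The upstream SYTL5 window held 0 CG dinucleotides, a count shared by 3.96% of 35116 RefSeq windows of the same length, and the downstream window held 3. The RAB27B windows held 6 and 17 and the RAB3D window held 18, beside a median of 14 over all windows. RAB27A, which was higher in shUBXN1, has 5 windows with 23, 1, 6, 1 and 4 CG dinucleotides. The gene counts do not tell which start was in use, and these features were not linked to the expression differences by any test.

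Genes next to SYTL5 on chromosome X did not share its fall in size. Of 11 protein-coding genes within 500 kb, 6 were tested. SRPX, whose nearer end is 20.5 kb downstream, was at 32.0 and 33.1 CPM in shCon and 36.8 and 41.4 CPM in shUBXN1 (log2 fold change 0.27, adjusted p = 0.0203). DYNLT3, a dynein light chain gene upstream at -159 kb, was at 24.8 and 22.4 CPM against 21.8 and 24.3 CPM, with overlapping groups and a log2 fold change of -0.035 (95% interval -0.26 to 0.19). XK, upstream at -274 kb, was the neighbor that fell, from 4.09 and 4.51 CPM to 1.98 and 1.07 CPM (log2 fold change -1.49, adjusted p = 0.00098). RPGR (0.32), TSPAN7 (0.10) and CYBB (-0.48) did not pass the test.

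**Figure D2:**
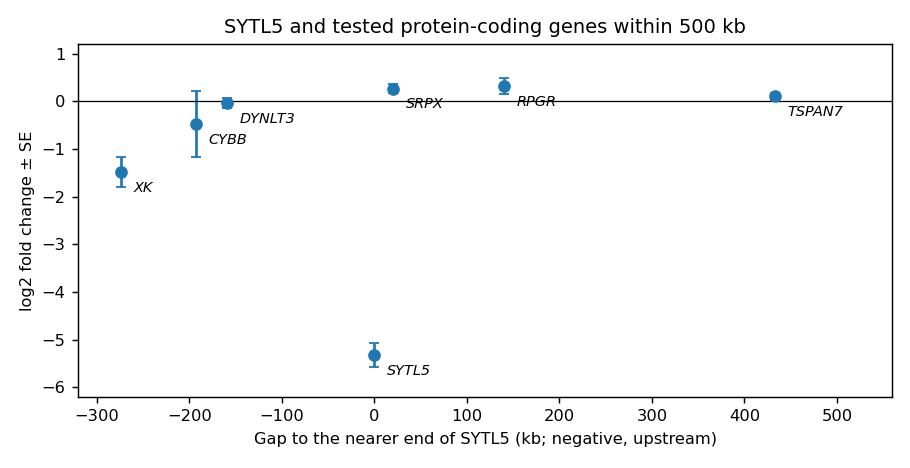
Fitted log2 fold change with its standard error for SYTL5 and the 6 tested protein-coding genes within 500 kb, by the gap to the nearer end of SYTL5 in kb. SYTL5 stands at -5.32 and XK at -1.49, while the other 5 genes lie between -0.48 and 0.32.

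The pattern of SYTL5 over the 4 libraries was compared with that of all other genes tested by the Euclidean distance between mean-centered log2 CPM values. The nearest was the unprocessed pseudogene ENSG00000236235 (distance 0.38), with 904 and 726 control counts and 32.7 and 22.7 after knockdown. IL7R, the interleukin 7 receptor gene, came next (0.44), with 211 and 126 counts in shCon and 4 and 2 in shUBXN1. CDH6, a cadherin gene, had 478 and 359 counts in shCon and 19.0 and 10 in shUBXN1 (0.48). The last of the 5 nearest were TNS4, a tensin gene (0.53), and ASB4, which encodes a ubiquitin ligase adaptor (0.62), and both had at most 2 counts in each shUBXN1 library. All 5 genes were lower in both shUBXN1 libraries, as their likeness to SYTL5 requires.

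Among the other synaptotagmin-like genes, SYTL2 fell. It encodes Slp2, a RAB27 effector that docks vesicles at the plasma membrane. SYTL2 (ENSG00000137501, chromosome 11, 85694224 to 85811159) had 2675 and 2231 counts in shCon and 828 and 799 in shUBXN1, or 100 and 94.95 CPM against 33.5 and 34.1 CPM. The groups lay far apart relative to the gap between replicates. SYTL2 differed by -1.53 on the log2 scale (SE 0.077, edgeR adjusted p = 1.8e-09), and 34.6% of the control level was left.

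SYTL4 encodes granuphilin, known for docking insulin granules in beta cells. It was at 31.2 and 31.2 CPM in shCon and 36.3 and 35.3 CPM in shUBXN1, with the knockdown libraries slightly above the control libraries. The log2 fold change of 0.20 did not pass the test (95% interval 0.017 to 0.38, edgeR adjusted p = 0.0599), and without the second shUBXN1 library it was 0.22 and did (edgeR adjusted p = 0.0485). With all libraries kept it also passed with total count scaling (0.28, edgeR adjusted p = 0.0162) and on log2(CPM + 1) with limma (0.27, adjusted p = 0.0171). The same held with at least 10 counts in every library (0.23, edgeR adjusted p = 0.0313) and with a block for replicate number (0.20, edgeR adjusted p = 0.0472). SYTL4 did not pass with DESeq2 (0.20, adjusted p = 0.188) or with no filter on low counts (0.19, edgeR adjusted p = 0.129). Nor did it pass with limma-voom, on log2(TPM + 1) or with the GC trend removed. The median over all genes tested was 0.10 with total count scaling and 0.080 on log2(CPM + 1), beside 0.016 in the main fit. With each library left out in turn, SYTL4 was between 0.17 and 0.22. Exons of SRPX2 on the opposite strand cover 39.0% of the exon bases annotated for SYTL4. SRPX2 itself fell from 42.3 and 45.6 CPM to 10.1 and 10.7 CPM. Whether reads were counted by strand is not given in the sources used here, and the part of SRPX2 in the SYTL4 value was not tested.

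SYTL1 and SYTL3 were measured at low counts. SYTL1, the gene of the effector JFC1, had 65.5 and 32 counts in shCon and 105 and 60 in shUBXN1. Its CPM was 2.46 and 1.36 in shCon and 4.22 and 2.56 in shUBXN1, so that the lowest knockdown library barely exceeded the highest control library. The log2 fold change of 0.82 (95% interval 0.076 to 1.56) missed the threshold (edgeR adjusted p = 0.0577). That outcome depended on the settings and on single libraries. With all libraries kept, SYTL1 passed with no filter on low counts (edgeR adjusted p = 0.0163) and with at least 10 counts in every library (edgeR adjusted p = 0.0306). It also passed with a block for replicate number (edgeR adjusted p = 0.0145). SYTL1 did not pass with each library's GC trend removed (0.58, edgeR adjusted p = 0.167) or with DESeq2 (0.82, adjusted p = 0.120). Nor did it pass with total count scaling (0.91, edgeR adjusted p = 0.0775) or with any of the limma settings. The log2 fold change was 1.32 without the first shCon library and 1.13 without the second shUBXN1 library, both past the threshold, and 0.46 without the second shCon library and 0.40 without the first shUBXN1 library. SYTL3 had 48 and 23 counts in shCon and 20 and 22 in shUBXN1. The control libraries differed from each other more than the second of them differed from the knockdown libraries. The log2 fold change of SYTL3 was -0.68 (95% interval -1.63 to 0.27, edgeR adjusted p = 0.212). It was -0.17 without the first shCon library and -1.04 without the second, and with the latter left out SYTL3 passed the rule on fold change (unadjusted p = 0.0481 by edgeR) but not the adjusted threshold.

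Compared per length, SYTL2 and SYTL4 made up most of the family in both groups, and their order changed. With the deposited gene lengths, SYTL2 gave 48.0% and 48.1% of the summed SYTL family TPM in the shCon libraries and 24.8% and 26.96% in shUBXN1. SYTL4 gave 33.0% and 35.005% in shCon and 59.4% and 61.6% in shUBXN1. SYTL5 went from 11.1% and 12.3% to 0.525% and 0.356%. The summed family level was 51.5 and 47.2 TPM in shCon and 35.5 and 30.8 TPM in shUBXN1. SYTL1 (1.39 to 2.58 TPM) and SYTL3 (0.775 to 1.47 TPM) had overlapping levels in shCon. The lengths of the canonical transcripts gave the same order of the 5 genes in both groups.

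**Figure D3:**
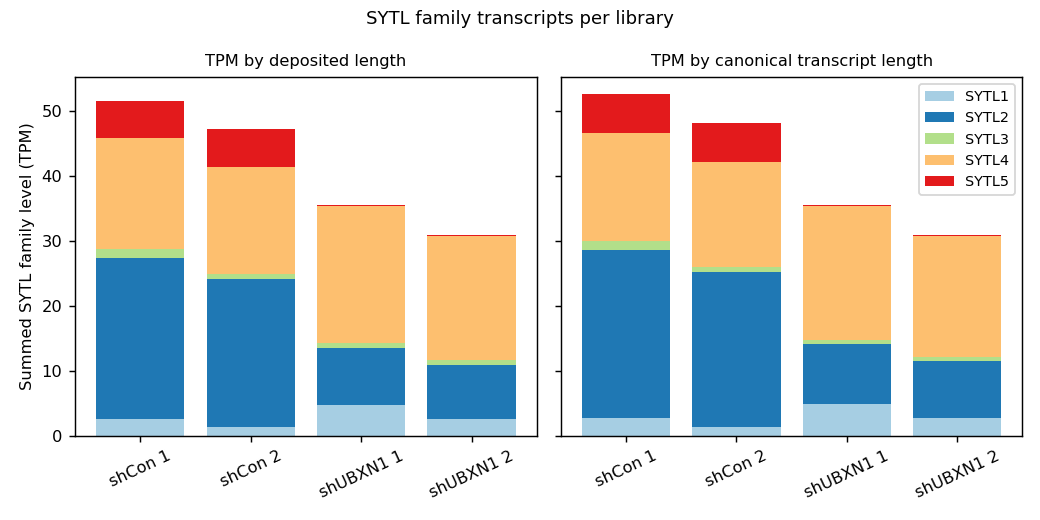
TPM of the SYTL genes stacked per library, with the deposited gene lengths on the left and the canonical transcript lengths on the right. The summed level was 51.5 and 47.2 TPM in shCon and 35.5 and 30.8 TPM in shUBXN1 with the deposited lengths, and SYTL5 is a visible part of the bar only in shCon.

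The paralogous GTPase genes RAB27A and RAB27B moved in opposite directions. RAB27A is needed for granule release in cytotoxic lymphocytes and is lost in a form of Griscelli syndrome. It was at 22.1 and 21.7 CPM in shCon and 26.8 and 30.9 CPM in shUBXN1, with a larger gap between the knockdown replicates than between the controls. RAB27A rose by 0.40 on the log2 scale (SE 0.10, edgeR adjusted p = 0.0040), and the value was between 0.29 and 0.49 with each library left out. RAB27B, which works in secretory cells and in exosome release, had 1135 and 947 counts in shCon and 445 and 392 in shUBXN1. This was 42.6 and 40.3 CPM against 18.0 and 16.7 CPM, with a clear gap between the groups. RAB27B fell, with a log2 difference of -1.25 (SE 0.093, edgeR adjusted p = 6.5e-08). RAB27A lies on chromosome 15 from 55202966 to 55319113 and RAB27B on chromosome 18 from 54717860 to 54895516.

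The balance of the RAB27 pair depends on the gene lengths used. With the deposited length of 1013 bases for RAB27A and 7003 for RAB27B, RAB27A gave 78.2% and 78.8% of the pair's TPM in shCon and 91.2% and 92.7% in shUBXN1. The canonical RAB27A transcript has 3447 bases, and with it RAB27A gave 51.3% and 52.2% in shCon and 75.2% and 78.9% in shUBXN1. The pair's summed level then was 26.6 and 24.9 TPM in shCon and 23.4 and 23.9 TPM in shUBXN1, whereas the deposited lengths put it at 56.7 and 53.7 TPM against 62.9 and 66.2 TPM. The direction of the sum therefore differed between the length choices, while RAB27A took a larger share after knockdown with both.

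RAB3D, a GTPase gene known from the granules of exocrine and mast cells, was at 12.9 and 12.7 CPM in shCon and 26.0 and 24.6 CPM in shUBXN1. The replicates lay close together in both groups. RAB3D rose by 0.98 on the log2 scale (SE 0.11, edgeR adjusted p = 2.6e-06), just short of a fold change of 2. The gene lies on chromosome 19 from 11322068 to 11346270, and an antisense lncRNA gene, ENSG00000267576, covers 20.7% of its exon bases. That antisense gene had 7.30 and 24.6 counts in shCon and 59.4 and 44.1 in shUBXN1, against 345 and 299 and then 644 and 576 counts for RAB3D.

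UNC13D showed the largest rise of the set. It encodes Munc13-4, the priming factor that RAB27A recruits to secretory granules, whose loss causes familial hemophagocytic lymphohistiocytosis. UNC13D (ENSG00000092929, chromosome 17, 75827225 to 75844785) had 976 and 893 counts in shCon and 4092 and 3669 in shUBXN1. Its CPM was 36.6 and 38.0 in shCon and 165 and 157 in shUBXN1, with no library near the other group. The mean level was 4.32-fold higher, which is 2.11 on the log2 scale (SE 0.077, edgeR adjusted p = 9.5e-11). No exon of another annotated gene overlapped its exons. MYRIP, which ties RAB27A to myosin VIIa, had 2 and 1 counts in shCon and 2 and 0 in shUBXN1. All 4 libraries were under the floor of 3 counts, which corresponds to 0.110 to 0.128 CPM before TMM scaling, so no difference in MYRIP was detectable at this depth.

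**Figure D4:**
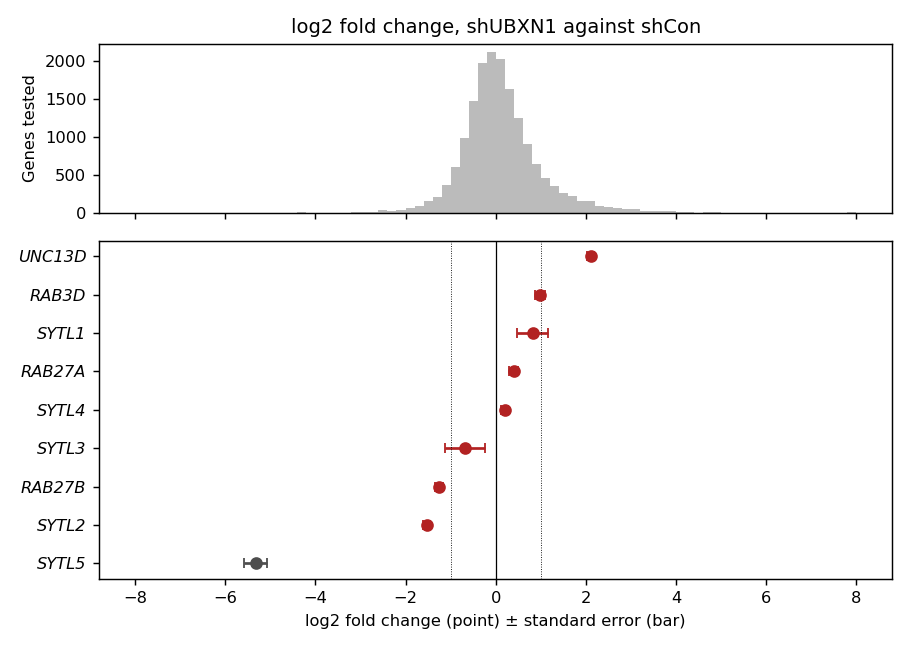
Fitted log2 fold changes of shUBXN1 against shCon. The upper panel is the histogram of all 16863 genes tested (values past 8 drawn at the edge), the lower panel gives the 9 members that passed the filter with standard errors, and dotted lines mark a fold change of 2. UNC13D (2.11) is highest, SYTL2 (-1.53) and RAB27B (-1.25) lie below the lower line, and SYTL5 (-5.32), which was picked by this value, is in gray.

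Set against each other per length, the members changed order after knockdown. With canonical transcript lengths, the highest in shCon were SYTL2 (24.8 TPM), UNC13D (19.2 TPM), SYTL4 (16.4 TPM), RAB27A (13.3 TPM) and RAB27B (12.4 TPM). In shUBXN1 they were UNC13D (86.3 TPM), SYTL4 (19.6 TPM), RAB27A (18.2 TPM), RAB3D (13.0 TPM) and SYTL2 (8.93 TPM). RAB27A (17.6 and 18.9 TPM) and SYTL4 (20.5 and 18.6 TPM) overlapped in shUBXN1. With the deposited lengths RAB27A was first in shCon at 43.3 TPM, and RAB3D came second at 27.9 TPM instead of 6.36 TPM, since the deposited RAB3D length is 924 bases and the canonical one 4240.

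Other genes of regulated exocytosis were described through 8 lists of 131 genes in all, of which 109 were tested. Of these 109 genes, 42 were higher and 23 lower at an adjusted p under 0.05, and the fold change of 2 was passed by 13 upward and 1 downward. The median log2 fold change was 0.12, beside 0.016 over all genes tested. The share higher at a fold change of 2 was 11.9%, close to the 11.8% of all genes tested, and the share lower was 0.917%, against 6.09%. At the adjusted threshold 38.5% were higher and 21.1% lower, against 28% and 28.2%.

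The calls in each list below are at the adjusted threshold, at which 28% of all genes tested were higher and 28.2% lower. Among 13 other RAB27 and RAB3 effectors and their myosins, 9 were tested, with 2 higher (22.2%), 2 lower (22.2%) and a median of -0.17. MYO7A, the myosin VIIa gene whose product MYRIP binds, rose from 6.04 and 5.96 CPM to 15.8 and 16.3 CPM (log2 fold change 1.42, adjusted p = 7.6e-07). Among the 15 regulators of RAB27 and RAB3, all tested, 5 were higher (33.3%) and 2 lower (13.3%), with a median of 0.068. TBC1D10C, a TBC-domain gene whose product also inhibits calcineurin, rose from 1.24 and 1.45 CPM to 26.2 and 19.7 CPM (log2 fold change 4.10, adjusted p = 1.0e-09). It was the largest rise in the 8 lists. Of 12 other exocytic RAB genes, 11 were tested, with 6 higher (54.55%), 4 lower (36.36%) and a median of 0.38. RAB26, a GTPase gene of secretory granules, rose from 3.75 and 2.81 CPM to 13.7 and 11.5 CPM (log2 fold change 1.94, adjusted p = 8.0e-07).

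More SNARE and priming genes were called higher than lower. Of 22 listed, 19 were tested, with 8 higher (42.1%, against 28% of all genes tested) and 3 lower (15.8%, against 28.2%). Their median was 0.22. The Munc13 relatives of UNC13D rose, with log2 fold changes of 1.36 for BAIAP3 (adjusted p = 1.1e-05) and 1.07 for UNC13A (adjusted p = 0.0011). Of 19 synaptotagmin and double C2 genes only 8 passed the filter, with 4 higher (50%), 1 lower (12.5%) and a median of 0.66. SYT17 rose from 8.87 and 10.03 CPM to 21.0 and 20.7 CPM (log2 fold change 1.14, adjusted p = 1.9e-06). SYT11 (log2 fold change 2.99) and SYT8 (1.35) also rose, from below 1 CPM in shCon.

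Of 12 exocyst and exocyst-like genes 10 were tested, with 6 higher (60%), 1 lower (10%) and a median of 0.25. EXOC3L4 was the 1 past a fold change of 2 (log2 fold change 1.17, adjusted p = 0.0075). Of 18 genes of exosome formation and exosome markers 17 were tested, with 6 higher (35.29%), 3 lower (17.65%) and a median of 0.092. The tetraspanin gene CD82 rose from 1.69 and 2.43 CPM to 7.03 and 6.96 CPM (log2 fold change 1.77, adjusted p = 2.2e-05), and RAB31 at 1.05 missed the adjusted threshold (adjusted p = 0.0539). All 21 genes of AP-3, the BLOC complexes and LYST, which build lysosome-related organelles, were tested. Of these, 5 were higher (23.8%) and 8 lower (38.1%), with a median of -0.020. RAB38, a GTPase gene of melanosome formation, was the only gene of the 8 lists to fall at a fold change of 2, from 13.6 and 14.6 CPM to 5.82 and 6.28 CPM (log2 fold change -1.22, adjusted p = 5.6e-06).

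**Figure D5:**
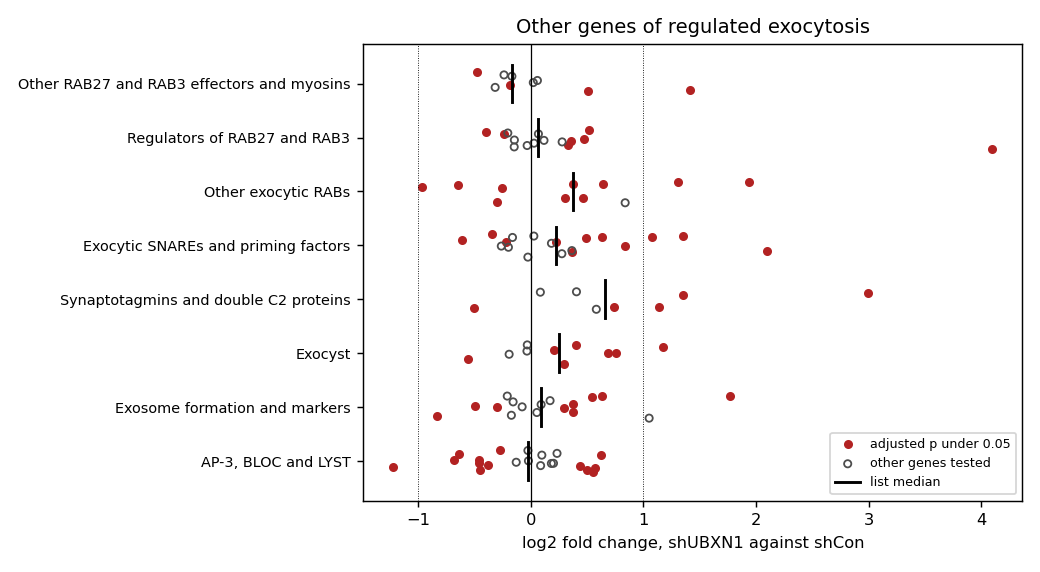
log2 fold change of each tested gene in the 8 exocytosis lists, filled red at an adjusted p under 0.05 and open otherwise, with the list median as a black bar and a fold change of 2 as dotted lines. TBC1D10C at 4.10 is farthest to the right and RAB38 at -1.22 farthest to the left.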

How the data were processed

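RNA of MHCC97H cells was sequenced in paired ends. By the study's methods reads were aligned to GRCh38 with Hisat2, whereas the submitters' processing notes list GRCh37, HISAT2 2.0.4 and StringTie 1.3.0, and the methods name shRFP as control where the labels name shCon. The authors deposited expected counts per gene (estimated counts, not normalized) with a gene length for 61541 genes. The counting step, the annotation release and the use of strand are not given in the sources used here. Of the gene IDs, 99.7% matched GENCODE release 44 on GRCh38, which gave symbols and positions.

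Rounded counts passed through filterByExpr and TMM scaling, and the quasi-likelihood fit (glmQLFit, glmQLFTest) came from edgeR 4.0.16 on R 4.3.3, with no block. Standard errors are the log2 fold change over the square root of F. TPM used unrounded counts. Genes were called at a Benjamini-Hochberg adjusted p under 0.05, and separately at a fold change of 2 with an unadjusted p under 0.05, as in the methods. The test was checked on simulated counts with a common dispersion, in which 200 of 16863 genes were changed. It called 181 of these 200 genes and 4 unchanged genes. Far more genes were called in the real data, so the check does not cover scaling and error rates under such broad change.

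The members and lists were chosen with earlier results of these data known. Genes named from a list are up to 3 per direction with the largest fold change at the fold change of 2, with a mean log2 CPM above 0. One gene that this rule names is not reported here. Canonical transcript lengths were added after the data were seen. Other settings were DESeq2 1.42.0, limma 3.58.1 (voom, log2(CPM + 1) and log2(TPM + 1)), total count scaling, other filters, a replicate block, removal of each library's GC trend and leaving out each library.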

Additional observations from a re-analysis of the deposited data

How the results depend on the processing

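With 2 libraries per group, calls rest on 2 residual degrees of freedom per gene and on sharing across genes, and low counts limit SYTL1, SYTL3, MYRIP and SYTL5 after knockdown. The calls of SYTL2, RAB27A, RAB27B, RAB3D and UNC13D kept direction and stayed past the adjusted threshold in all 13 alternatives, and SYTL3 never passed that threshold. Of 116 member values under the alternatives, none reversed and 10 passed the adjusted threshold where the reported value had not, all of SYTL1 or SYTL4. With at least 10 counts in every library, or with the replicate block, 5 members were called higher at the adjusted threshold in place of 3, and leaving out single libraries gave 3 to 5, with 5 without the second shUBXN1 library. At a fold change of 2, 2 members were called higher in place of 1 with total count scaling, log2(TPM + 1), log2(CPM + 1) and at least 10 counts in every library, since RAB3D lies near the line. Leaving out single libraries gave 1 to 3, with 2 without the first shCon library and 3 without the second shUBXN1 library. Members called lower at a fold change of 2 numbered 2 to 3 when single libraries were left out, with SYTL3 added without the second shCon library. The numbers of all genes at a fold change of 2 (1997 higher, 1027 lower) were 1028 and 524 on log2(TPM + 1) and 1154 and 502 on log2(CPM + 1), where the added 1 shrinks low genes, and 1321 were higher with at least 10 counts in every library, where fewer genes were tested. SYTL5 was at -2.56 on log2(TPM + 1) and -3.40 on log2(CPM + 1), and had no value with at least 10 counts in every library. Samples that share a replicate number are not tied by the labels and deviated together little (r = 0.039 across genes). The block moved the adjusted calls from 4727 to 5000 higher and from 4751 to 5023 lower.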
